A study of Mus musculus with 48 samples.

Results

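A set of 10 regulators of the primitive streak and the mesoderm that forms from it were followed in mouse embryonic stem cells: the T-box factors T (Brachyury), Eomes and Tbx6, the homeobox factors Mixl1, Gsc and Lhx1, the bHLH factor Mesp1, the ligands Wnt3 and Wnt3a, and the receptor Kdr. They were taken by symbol and are 10 of the 48321 gene rows of the expression table. All cells were male R1 embryonic stem cells of strain 129SV, grown without serum in 2i medium with LIF on coated dishes. WT was the unedited line, dKO carried a knockout of both Mll3 (Kmt2c) and Mll4 (Kmt2d), and dCD carried catalytically deficient forms of both. The series holds 48 samples, of which the 9 RNA-seq libraries of polyadenylated RNA were used here, 3 per line. Each genotype is a single line in the labels, so clone and genotype cannot be told apart. Whether the 3 replicates came from separate cultures is not stated, and p-values here reflect the library-to-library spread alone, possibly a technical one. The mRNA was measured in bulk, so fewer expressing cells and less RNA per cell cannot be told apart.

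The primitive streak is where epiblast cells leave the pluripotent state and move inward at gastrulation. Wnt3 and Nodal signalling start it, T, Eomes and Mixl1 mark it, Gsc and Lhx1 mark its anterior end, and Mesp1, Tbx6 and Kdr come up as its cells become mesoderm. Wnt ligands act through frizzled receptors to stabilise beta-catenin, which works with TCF/LEF factors at targets such as T. The 2i medium blocks MEK and also blocks GSK3, the kinase that marks beta-catenin for destruction, and it holds cells in a naive state in which most of these genes are low. Mll3 and Mll4 are histone methyltransferases that place H3K4me1 at enhancers.

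Recovered depth was 21090624 to 56249770 reads per library. Kmt2c measured 21.1 ± 1.22 TPM in WT, 7.66 ± 0.292 in dKO and 26.9 ± 1.65 in dCD (SD, n = 3), and Kmt2d 66.4 ± 1.08, 82.9 ± 2.22 and 63.2 ± 7.44. Where in each gene the edit lies is not labelled, so Kmt2d reads from outside it check nothing. All 10 listed pluripotency markers, Pou5f1, Sox2 and Nanog among them, were at 1 TPM or more in every library. Against WT, 1 of them was higher (Klf4) and 8 lower in dKO, and none was higher and 9 lower in dCD. Their summed level was 15345 to 15779 TPM in WT, 8405 to 8499 in dKO and 11529 to 11889 in dCD, but Dppa5a alone had means of 6433, 1199 and 4909 TPM. The other 9 summed to 9178.5 to 9207 in WT, 7220.5 to 7283 in dKO and 6722 to 6860 in dCD, so the order of the edited lines turned without it.

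Promoter sequence was examined in the RefSeq table of build GRCm38.p6, which holds 250 bases before to 50 bases after the start of 32851 transcripts and matched 9 of the 10 genes. The expression values use build mm9. The TCF/LEF letters CTTTGAT or CTTTGAA, read on both strands, were present in the windows of T and Mesp1 among the 9. CTTTGAT occurs in 3.729% and CTTTGAA in 5.135% of all windows. The short T-box letters AGGTGT, in 13.74% of windows, were also in these 2, and the longer AGGTGTG, which contains them and occurs in 5.845% of windows, was in the Mesp1 window 7 bases after the start. Both windows are printed for that reason, 5′ to 3′ on the strand of the gene from position -250 to -1, with the matched letters in capitals. T lies at chr17:8434173-8434422 on the plus strand and Mesp1 at chr7:79793591-79793840 on the minus strand. Capitals in the T window are CTTTGAA on the opposite strand at -235 and AGGTGT at -14. In the Mesp1 window they are AGGTGT at -233, the SMAD letters CAGAC at -117, CTTTGAA on the opposite strand at -73 and CTTTGAT at -31.
T: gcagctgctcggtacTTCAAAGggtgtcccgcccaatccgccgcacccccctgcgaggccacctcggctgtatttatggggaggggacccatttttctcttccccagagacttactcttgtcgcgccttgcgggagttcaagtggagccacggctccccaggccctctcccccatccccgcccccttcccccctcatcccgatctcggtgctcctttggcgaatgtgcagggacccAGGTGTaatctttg
Mesp1: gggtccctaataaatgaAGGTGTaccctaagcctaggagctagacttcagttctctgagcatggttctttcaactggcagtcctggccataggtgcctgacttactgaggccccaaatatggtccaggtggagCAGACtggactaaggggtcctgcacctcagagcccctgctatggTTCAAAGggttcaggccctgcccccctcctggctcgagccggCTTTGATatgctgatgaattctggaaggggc

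The windows of the 2 Wnt genes are shown because these ligands changed in opposite directions in both edited lines, and their base composition differs. The 150 bases before the start are printed with each CG dinucleotide, the site of DNA methylation, in capitals. Wnt3 lies at chr11:103774025-103774174 on the plus strand and holds 12 CG in this stretch. Wnt3a lies at chr11:59290752-59290901 on the minus strand and holds 26.
Wnt3: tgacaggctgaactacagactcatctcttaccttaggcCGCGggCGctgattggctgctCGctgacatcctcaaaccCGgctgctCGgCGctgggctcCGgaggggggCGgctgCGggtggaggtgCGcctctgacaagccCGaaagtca
Wnt3a: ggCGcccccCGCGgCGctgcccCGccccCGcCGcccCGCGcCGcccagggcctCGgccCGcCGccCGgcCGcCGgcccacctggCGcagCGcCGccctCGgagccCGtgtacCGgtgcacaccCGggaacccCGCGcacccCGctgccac

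Over the whole 300-base window Wnt3a had 15 CG per 100 bases and 86.33% G + C, as much CG as or more than 98.35% of all windows and as much G + C as or more than 99.96%. Wnt3 had 8 CG per 100 bases, and Mesp1, with 1.333, had the lowest density of the 9 genes, below the median of 2.33 over all windows. The TATA letters TATAAA, in 13.62% of all windows, were found in Gsc at -164 and Tbx6 at -43. CAGAC, in 49.59%, was also found in Tbx6, Lhx1 and Wnt3, and the FoxH1 letters ATNCACA, in 13.03%, were found in none of the 9. These matches describe letters in a window only.

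In WT cells the 10 genes spanned a wide range of levels, compared here in TPM, which scales reads by gene length and library total. Gsc was highest at a mean of 14.7 TPM and Eomes followed at 6.26. Tbx6 at 2.26, Wnt3a at 2.00 and T at 1.48 came next, and the WT libraries of Tbx6 overlapped those of Wnt3a, while those of Wnt3a and T overlapped each other. Kdr at 0.735 and Mixl1 at 0.561 TPM overlapped too. Mesp1 at 0.143, Wnt3 at 0.109 and Lhx1 at 0.00664 TPM were lowest, and the WT libraries of Mesp1 overlapped those of both Wnt3 and Lhx1. In dKO the order was led by Eomes at 6.67, Gsc at 3.86 and Kdr at 3.11 TPM, and in dCD by Gsc at 18.9, Eomes at 6.31 and Wnt3 at 2.57. A gene was counted as detected in a line where every library of that line held at least 10 reads. By that count 6 of the 10 were detected in WT, 7 in dKO and 8 in dCD. At 1 TPM or more in every library, the counts were 5, 5 and 4. Mesp1 and Lhx1 were not detected in any line, Wnt3 was detected in both edited lines and not in WT, and Wnt3a was detected in WT and dCD and not in dKO. Mixl1 fell just short of detection in WT with 9, 14 and 10 reads.

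**Figure D1:**
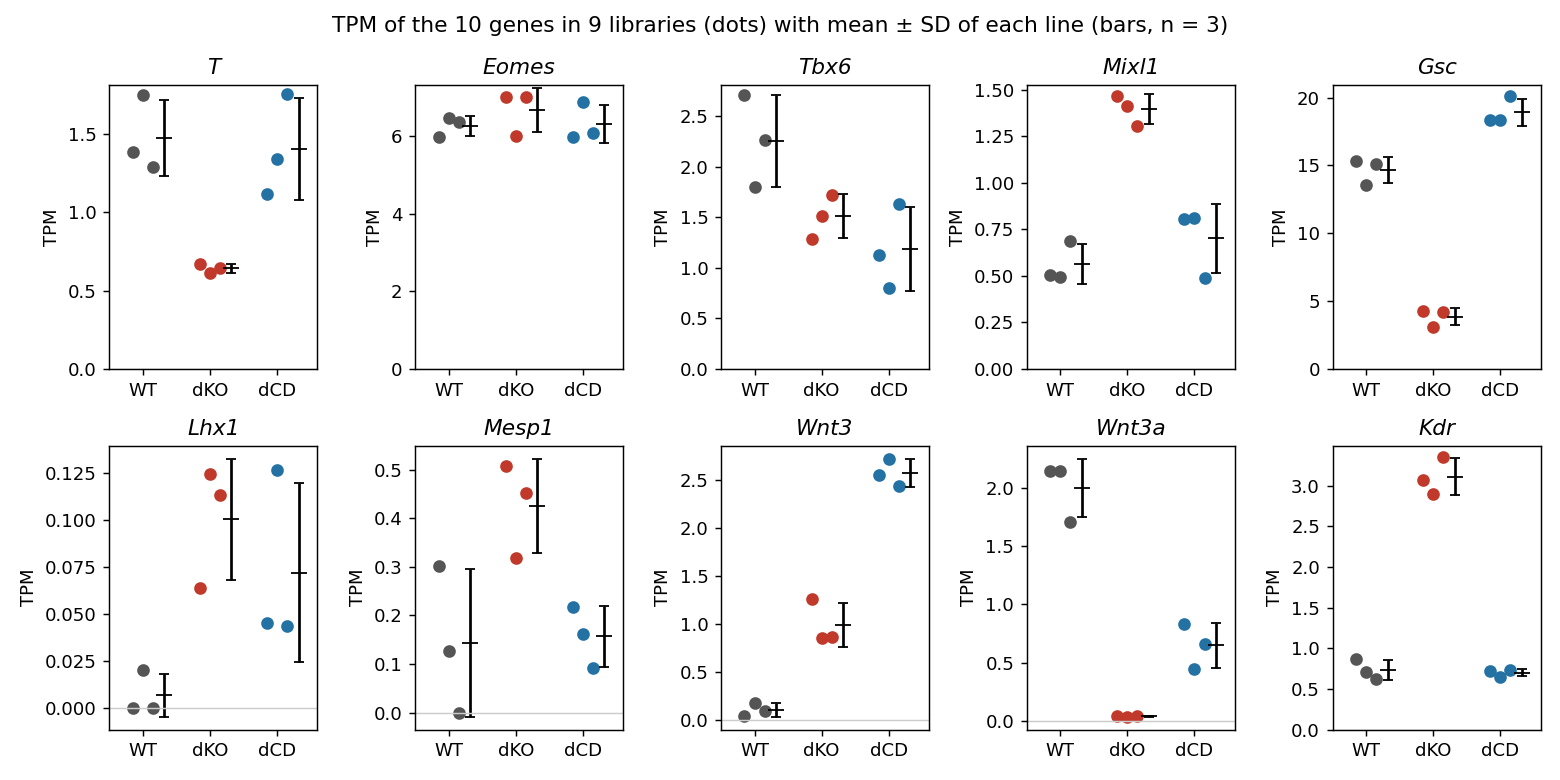
TPM of each gene in the 9 libraries (dots, replicates 1 to 3 from left to right) with the mean and SD of each line (bars, n = 3), on a linear axis per gene. Gsc, T and Wnt3a were lowest in dKO, Kdr and Mixl1 highest in dKO, Wnt3 highest in dCD, and Eomes overlapped in all lines.

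Changes were tested in limma on log2(TPM + 1), over the 16179 genes with at least 1 TPM in at least 3 libraries, and called at an adjusted p under 0.05. Of the 10 genes 8 entered this fit. Mixl1 and Kdr passed the filter through their dKO libraries alone and Wnt3a through its WT libraries alone. Wnt3 passed through 3 dCD libraries and 1 dKO library, and T through WT and dCD, so a difference in these 5 was partly built into their being tested. The same holds for listed genes under 1 TPM in every WT library, such as Hand1, Hand2, Cdx2, Tal1, Col1a1, Col1a2 and Col3a1. Counts and medians of the lists that hold such genes are affected too. Mesp1 and Lhx1 were read from the same fit without the TPM filter (23301 genes). By this call 43.4% of the 16179 genes were higher and 28.4% lower in dKO than in WT, and 28.9% and 29.5% in dCD than in WT, and the counts over gene lists and neighbours stand beside those shares. Log2 changes on this scale understate those of low genes, and the ratio of mean TPM is given beside them.

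Among the T-box factors, T fell in dKO and Tbx6 fell in dCD, while Eomes overlapped in all 3 lines. T, the Brachyury factor that defines the streak and later the notochord, measured 1.39, 1.75 and 1.29 TPM in WT (25, 50 and 19 reads), 0.670, 0.611 and 0.647 in dKO (12, 14 and 13 reads), and 1.11, 1.34 and 1.76 in dCD (28, 30 and 69 reads). Each dKO library lay under every WT and dCD library, and the WT and dCD libraries overlapped. The mean was 2.30-fold lower in dKO than in WT, a log2 change of -0.59 (SE 0.123, limma adjusted p = 0.00148), and it was lower in dKO than in dCD by the same test (-0.54, adjusted p = 0.00271). Between dCD and WT the log2 change was -0.05 with a 95% interval of -0.32 to 0.23 (limma adjusted p = 0.765).

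Eomes drives the earliest mesendoderm and is also a trophoblast regulator. It measured 5.97, 6.46 and 6.35 TPM in WT, 6.99, 6.01 and 7.01 in dKO, and 5.97, 6.88 and 6.08 in dCD, on 168 to 429 reads per library. The 3 lines overlapped throughout. The log2 change against WT was 0.08 in dKO (95% interval -0.09 to 0.24, limma adjusted p = 0.366) and 0.01 in dCD (-0.16 to 0.17, adjusted p = 0.934), so changes beyond these bounds are outside the intervals. Of the 6 other trophoblast markers tested, 4 were higher and 1 lower in dKO, and all 6 were higher in dCD, with median log2 changes of 0.62 and 2.02. The keratin Krt18 went from 15.04 ± 1.75 TPM in WT to 50.6 ± 3.15 in dKO and 310.8 ± 11.2 in dCD, and Gata3, a trophoblast transcription factor, from 3.34 ± 0.197 in WT to 21.1 ± 1.22 in dCD. The summed level of the 7 markers other than Eomes was 92.6 to 99.8 TPM in WT, 124.4 to 130.5 in dKO and 588.7 to 624.9 in dCD. Without the keratins Krt8 and Krt18 it was 57.1 to 60.3, 34.97 to 37.8 and 90.8 to 93.4, lower in dKO than in WT. Most of that was Tfap2c, at 54.6 ± 1.77 TPM in WT, 30.1 ± 0.924 in dKO and 63.7 ± 0.882 in dCD. It was the 1 marker called lower in dKO, while 2 others outside the keratins were called higher there. Elf5 was at most 0.0351 TPM in any library. The part of trophoblast markers in the Eomes values was not tested.

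Tbx6 directs cells of the streak to paraxial mesoderm rather than neural fate. It measured 2.71, 1.80 and 2.26 TPM in WT, 1.29, 1.51 and 1.72 in dKO, and 1.12, 0.801 and 1.63 in dCD, on 14 to 50 reads per library. Every library of both edited lines lay under every WT library, and the 2 edited lines overlapped. The mean was 1.90-fold lower in dCD (log2 change -0.58, SE 0.155, limma adjusted p = 0.00846). WT had 1.47 times the reads per depth of dKO (counting interval 1.08 to 2.01), and that change did not pass (-0.37, SE 0.155, limma adjusted p = 0.0533). It passed there in 6 of the alternatives, 3 of them leaving out WT replicate 2 (limma adjusted p = 0.0295), dCD replicate 2 (0.035) or dCD replicate 3 (0.032), and the range over all alternatives was 0.0281 to 0.179. The edited lines did not differ by the test (0.21, interval -0.13 to 0.56, adjusted p = 0.246).

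Of 14 other T-box genes 8 were tested. In dKO 2 were higher and 4 lower than in WT, with a median log2 change of -0.38 against 0.10 over all tested genes, and in dCD 2 were higher and 4 lower, with a median of -0.09 against -0.01. Tbx3, the most abundant of them and a factor of naive pluripotency as well as mesoderm, fell from 212.6 ± 5.60 TPM in WT to 110.0 ± 2.08 in dKO and 181.2 ± 10.2 in dCD. Tbx21, the T-bet gene of lymphocytes, fell from 9.89 ± 0.815 to 0.324 ± 0.151 in dKO and 3.03 ± 0.537 in dCD. Tbx15 rose from 1.29 ± 0.135 to 8.96 ± 0.361 and 4.50 ± 0.802.

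The 3 homeobox genes moved apart. Mixl1 rose in dKO, Gsc fell in dKO and rose in dCD, and Lhx1 stayed near 0. Mixl1, which patterns the streak and promotes endoderm, measured 0.504, 0.495 and 0.685 TPM in WT (9, 14 and 10 reads), 1.46, 1.41 and 1.31 in dKO (26, 32 and 26 reads), and 0.803, 0.810 and 0.488 in dCD (20, 18 and 19 reads). Every dKO library was above all others, and dCD overlapped WT. The dKO mean was 2.48-fold that of WT (log2 change 0.62, SE 0.117, limma adjusted p = 0.000757) and higher than that of dCD (0.50, adjusted p = 0.00325). Between dCD and WT the log2 change was 0.12 (interval -0.14 to 0.38, adjusted p = 0.41).

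Gsc, the goosecoid repressor of the anterior streak and organiser, held 39 to 432 reads per library. It measured 15.3, 13.6 and 15.1 TPM in WT, 4.28, 3.11 and 4.18 in dKO, and 18.3, 18.3 and 20.1 in dCD. The 3 lines did not overlap. The mean was 3.80-fold lower in dKO than in WT (log2 change -1.70, SE 0.0935, limma adjusted p = 6.54e-08) and 1.29-fold higher in dCD than in WT (0.35, SE 0.0935, adjusted p = 0.0091). The gap between the edited lines was 4.90-fold (-2.04, adjusted p = 2.01e-08), the widest range of line means on the log2(TPM + 1) scale among the 8 genes in the fit. With a pseudocount of 0.1 it was -2.28, and Wnt3a and Wnt3 had wider ranges.

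Lhx1, a LIM-homeobox factor of the anterior streak and the node, held 0, 1 and 0 reads in WT, 2, 5 and 4 in dKO, and 2, 5 and 3 in dCD. The highest level in any library was 0.127 TPM. In the WT libraries at 0, the floor of 3 reads is 0.0947 TPM in replicate 1 and 0.116 in replicate 3. Both floors lie within the range of the libraries of each edited line, so lower levels in that range could be missed there. In WT replicate 2, which held 1 read, the floor is 0.0597 TPM. That is under every dKO library (0.0634 to 0.124 TPM) and under the dCD mean of 0.0718 TPM. The ratio of summed reads per depth, dKO over WT, was 10.8 on 11 reads against 1. Its 95% counting interval of 1.58 to 466.6 excludes equality, and it covers counting error only. In the fit without the filter, where 56.3% of genes were called in dKO against WT, 44.9% in dCD against WT and 53.9% in dKO against dCD, the log2 change in dKO was 0.13 (limma adjusted p = 0.0514, 0.00579 to 0.137 over the alternatives) and in dCD 0.09 (adjusted p = 0.177). Of 5 listed genes, the partners of Lhx1 and the related Lhx5, 3 were tested, while Ldb2 was at 0 in all 9 libraries and Lhx5 did not enter the fit. Ldb1, the adaptor of LIM domains, was at 268.8 ± 9.01 TPM in WT, 216.0 ± 2.03 in dKO and 229.2 ± 7.05 in dCD, and fell in both. Ssbp3, which stabilises the Ldb1 complex, rose from 26.8 ± 0.830 to 89.2 ± 1.92 in dKO and 68.9 ± 1.72 in dCD.

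Mesp1 is a bHLH factor of the first mesoderm to leave the streak, from which heart progenitors arise. It held 3, 2 and 0 reads in WT, 5, 4 and 5 in dKO, and 3, 2 and 2 in dCD, corresponding to 0.302, 0.127 and 0 TPM, then 0.507, 0.317 and 0.452, then 0.217, 0.162 and 0.0924. The dKO libraries lay above the rest, and dCD overlapped WT. In the fit without the filter it was called higher in dKO (log2 change 0.32, SE 0.0987, limma adjusted p = 0.0185) on 14 reads against 5. The ratio of reads per depth was 2.76 with a counting interval of 0.939 to 9.79, which includes equality. The call was lost without WT replicate 3 (limma adjusted p = 0.0634), without dKO replicate 1 (0.0624) and without dKO replicate 3 (0.0522), with a range of 0.0033 to 0.0634 over all alternatives. Against dCD it was called too (0.30, adjusted p = 0.0277), and lost with a pseudocount of 0.1 (0.0854) and without any 1 of 4 libraries, dKO replicates 1 and 3 and dCD replicates 2 and 3. Its neighbour and paralogue Mesp2, which acts in somite formation, measured 1.20 ± 0.195 TPM in WT, 2.14 ± 0.476 in dKO and 1.22 ± 0.254 in dCD, higher in dKO than in WT (limma log2 change 0.51, adjusted p = 0.00724).

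The 2 Wnt ligands of the streak changed in opposite directions. Wnt3, the ligand required to form the streak, was near 0 in WT and rose in both edited lines, most in dCD. Its libraries held 1, 7 and 2 reads in WT, 30, 26 and 23 in dKO, and 85, 81 and 127 in dCD, or 0.0418, 0.185 and 0.102 TPM, then 1.26, 0.855 and 0.861, then 2.55, 2.72 and 2.43. No library of a line overlapped those of another. The mean in dCD was 23.4-fold that of WT (log2 change 1.69, SE 0.115, limma adjusted p = 7.44e-07), and that in dKO 9.06-fold (0.84, SE 0.115, adjusted p = 7.25e-05). The dKO mean was 2.59-fold lower than that of dCD (-0.85, adjusted p = 7.82e-05). On reads per depth, which carry no pseudocount, the dCD ratio to WT was 20.6 (counting interval 11.1 to 43.5) and the dKO ratio 7.79 (4.02 to 16.9).

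Wnt3a, which maintains the streak and paraxial mesoderm through the tailbud, fell in both edited lines, most in dKO. It held 46, 73 and 30 reads in WT, 1 read in each of the 3 dKO libraries, and 25, 12 and 31 in dCD. These were 2.14, 2.14 and 1.71 TPM in WT, 0.0468, 0.0366 and 0.0417 in dKO, and 0.834, 0.449 and 0.662 in dCD. Again the 3 lines did not overlap. The log2 change was -1.52 in dKO (SE 0.124, limma adjusted p = 1.33e-06) and -0.87 in dCD (SE 0.124, adjusted p = 0.000164), and dKO was lower than dCD (-0.66, adjusted p = 0.000802). WT had 50.4 times the reads per depth of dKO, with a counting interval of 16.9 to 247.1 on 149 reads against 3, and 3.11 times those of dCD (2.32 to 4.21).

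The sum of the 2 ligands was 2.11 ± 0.268 TPM in WT, 1.03 ± 0.236 in dKO and 3.21 ± 0.149 in dCD. By mean level among 19 Wnt genes, Wnt3a ranked 3 in WT, 18 in dKO and 14 in dCD, while Wnt3 ranked 15, 8 and 7. All 19 together summed to 16.9 ± 0.364 TPM in WT, 29.2 ± 0.909 in dKO and 39.65 ± 1.65 in dCD (SD, n = 3), with 5, 7 and 10 of them at a mean of 1 TPM or more. In dKO the rise of the sum was no larger than that of Wnt8a alone, from a mean of 0.251 to 13.7 TPM. Of the 17 other Wnt genes 9 were tested. Wnt2b, Wnt4, Wnt8a, Wnt10b and Wnt11 were under 1 TPM in every WT library and passed the filter through edited lines alone. Part of the rise in the counts and medians of this list was therefore built into the filter. In dKO 6 were higher and 2 lower than in WT, and in dCD 7 were higher and 1 lower, with median log2 changes of 0.32 and 1.30 against 0.10 and -0.01 over all tested genes. Wnt8a, another ligand of the early streak, went from 0.251 ± 0.0621 TPM to 13.7 ± 1.29 in dKO (log2 change 3.55, limma adjusted p = 2.18e-10) and 3.14 ± 0.303 in dCD. Wnt7b rose from 1.52 ± 0.144 to 8.95 ± 0.516 in dCD and was 1.43 ± 0.0867 in dKO. Wnt5b, a ligand of the beta-catenin-independent branch, fell from 3.89 ± 0.427 to 0.891 ± 0.0755 and 1.92 ± 0.177.

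**Figure D2:**
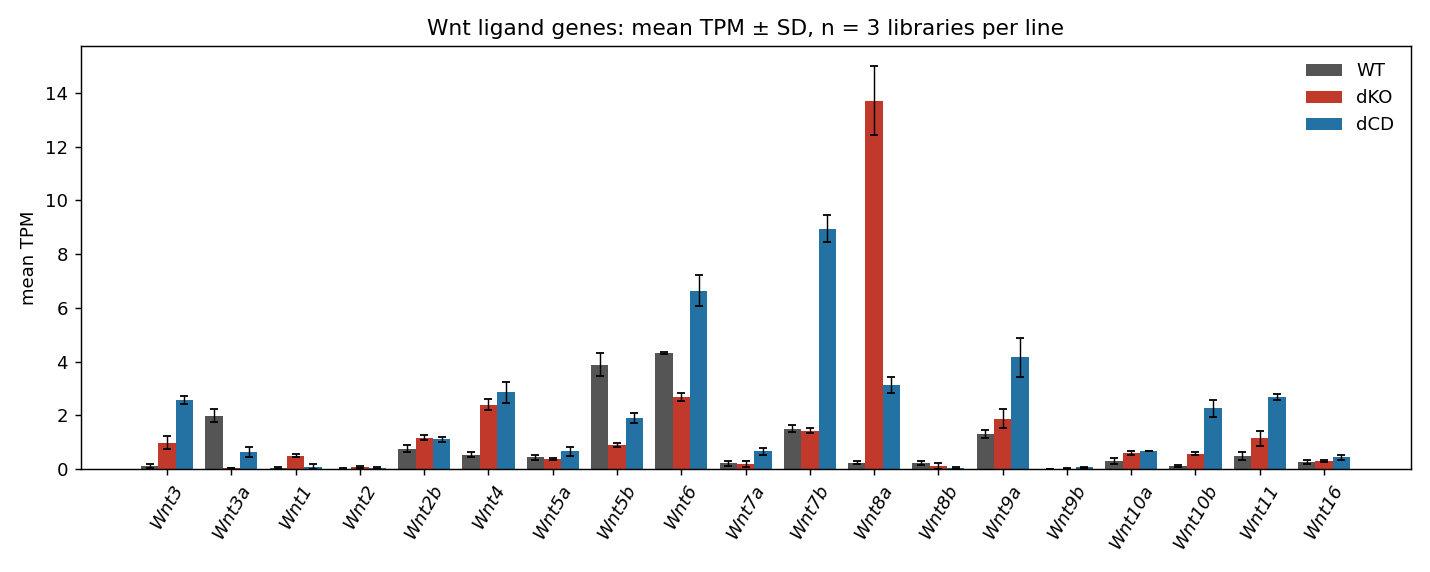
Mean TPM of 19 Wnt ligand genes in WT, dKO and dCD with the SD of 3 libraries (error bars) on a linear axis from 0. Wnt8a was the highest in dKO at 13.7 TPM and Wnt7b the highest in dCD at 8.95, beside the rise of Wnt3 and the fall of Wnt3a.

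Beyond the ligands, 31 of 34 listed Wnt pathway genes were tested. In dKO 19 were higher and 7 lower (16 and 9 under median-ratio scaling), and in dCD 12 were higher and 12 lower, with medians of 0.18 and 0.02. Wls, which carries Wnt proteins to the cell surface, rose from 2.39 ± 0.270 TPM to 16.1 ± 0.867 in dKO and 24.6 ± 0.927 in dCD. The receptor Fzd2 rose from 17.1 ± 0.158 to 40.3 ± 0.680 and 72.2 ± 2.21. Notum, a secreted enzyme that inactivates Wnt proteins, rose from 44.1 ± 1.07 to 153.1 ± 3.55 in dKO and fell to 6.79 ± 0.277 in dCD. Tcf7l1, the repressive TCF factor, fell from 180.2 ± 4.30 to 106.1 ± 3.21 in dKO and rose to 202.9 ± 12.5 in dCD. Axin2, a Wnt target and feedback inhibitor, fell from 17.1 ± 1.16 to 9.96 ± 0.568 in dKO and 14.97 ± 0.657 in dCD, and Lef1 from 6.95 ± 0.433 to 2.91 ± 0.244 and 4.24 ± 0.414. Going the other way, Znrf3 rose from 14.1 ± 0.379 to 18.8 ± 0.754 in dKO and was 14.9 ± 0.709 in dCD. Dkk1 rose from 0.105 ± 0.0779 to 1.31 ± 0.428 in dKO and 7.88 ± 0.474 in dCD. In the Nodal pathway, the other signal that starts the streak, 13 of 14 genes were tested. In dKO 9 were higher and 4 lower, which became 4 and 4 under median-ratio scaling, and 4 were higher and 5 lower in dCD, with medians of 0.13 and 0.01. Foxh1, the SMAD cofactor of Nodal targets such as Gsc and Eomes, fell from 129.2 ± 3.12 to 24.3 ± 0.708 TPM in dKO and 93.3 ± 2.37 in dCD, and Lefty1, a Nodal inhibitor and target, rose from 78.8 ± 5.60 to 209.1 ± 4.38 in dKO.

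Kdr, the VEGF receptor that marks mesoderm bound for heart, vessels and blood, rose in dKO and not in dCD. It measured 0.868, 0.709 and 0.626 TPM in WT (61, 79 and 36 reads), 3.08, 2.90 and 3.35 in dKO (215, 259 and 263 reads), and 0.725, 0.652 and 0.731 in dCD (71, 57 and 112 reads). All dKO libraries lay far above the rest, and dCD overlapped WT. The dKO mean was 4.23-fold that of WT (log2 change 1.25, SE 0.0964, limma adjusted p = 9.16e-07) and 4.43-fold that of dCD (1.27, adjusted p = 9.57e-07). Between dCD and WT the log2 change was -0.03 (interval -0.24 to 0.19, adjusted p = 0.844).

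Of the other VEGF ligand and receptor genes 9 were tested, of which 6 were higher and 2 lower in dKO (4 and 2 under median-ratio scaling) and 5 higher and 4 lower in dCD, with medians of 0.20 and 0.55. The lymphatic receptor Flt4 rose from 2.13 ± 0.110 to 8.18 ± 0.396 TPM in dKO and 3.57 ± 0.0731 in dCD, Flt1 rose from 0.492 ± 0.0726 to 2.59 ± 0.159 in dCD and was 0.446 ± 0.0612 in dKO, and Vegfa fell from 77.1 ± 1.46 to 69.1 ± 2.49 in dKO and rose to 122.5 ± 4.77 in dCD. Of 11 endothelial and blood markers 7 were tested, with 4 higher and 3 lower in dKO and 3 higher and 2 lower in dCD (medians 0.75 and -0.02). The angiopoietin receptor Tek rose from 1.41 ± 0.135 TPM in WT to 6.69 ± 0.370 in dKO and 2.68 ± 0.468 in dCD. Esam rose from 0.887 ± 0.343 to 5.03 ± 0.0988 in dKO and 2.03 ± 0.310 in dCD. Pecam1, which embryonic stem cells also express, fell from 67.2 ± 1.44 to 20.8 ± 1.05 in dKO and 58.6 ± 0.952 in dCD. The summed level of the 11 was 74.8 to 75.9 TPM in WT, 37.7 to 40.9 in dKO and 68.1 to 71.3 in dCD, most of it Pecam1. The sum of the other 10 ran the opposite way in dKO, at 7.14 to 8.88 TPM in WT, 17.5 to 18.9 in dKO and 9.47 to 11.8 in dCD. Of those tested, 4 were higher in dKO and 2 lower. Gata1 fell from 2.18 ± 0.498 TPM in WT to 0.346 ± 0.0487 in dKO, and Cd34 from 1.39 ± 0.260 to 0.965 ± 0.0538. The call of Cd34 was lost under quantile normalization (limma adjusted p = 0.0651). Of the defining markers, the endothelial cadherin Cdh5 had means of 0.0253, 0.140 and 0.306 TPM in WT, dKO and dCD, Emcn was at most 0.0187, and the embryonic globin Hbb-bh1 was at 0 in all 9 libraries. The part of such cells in the Kdr values was not tested.

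Counted together, 6 of the 8 tested genes were called in dKO against WT, 3 higher (Mixl1, Wnt3, Kdr) and 3 lower (T, Gsc, Wnt3a), against a background of 71.8% of the 16179 genes (43.4% up and 28.4% down). The libraries of the 2 lines did not overlap for 7 of the 8, against 74.4% of all genes. In dCD against WT 4 of 8 were called, Gsc and Wnt3 higher and Wnt3a and Tbx6 lower, with a background of 58.4% (28.9% up and 29.5% down), and 4 did not overlap, against 63.5%. In dKO against dCD 6 were called, 2 higher and 4 lower, with a background of 69.3% (42.3% up and 27% down), and 6 did not overlap, against 73.1%. Median-ratio scaling moved the split of all calls in dKO against WT from 7021 up and 4596 down to 5636 and 5650, and in dKO against dCD from 6846 and 4374 to 5290 and 5531. The shares of the 8 genes are near the background and are no result about these genes. Their median log2 change was -0.15, -0.01 and -0.24 in the 3 comparisons, against 0.10, -0.01 and 0.10 over all tested genes. At 2-fold on the log2(TPM + 1) scale, 13.9% of all genes were called in dKO against WT, 6.94% in dCD against WT and 11% in dKO against dCD. The comparisons share libraries, so their values are given side by side only.

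**Figure D3:**
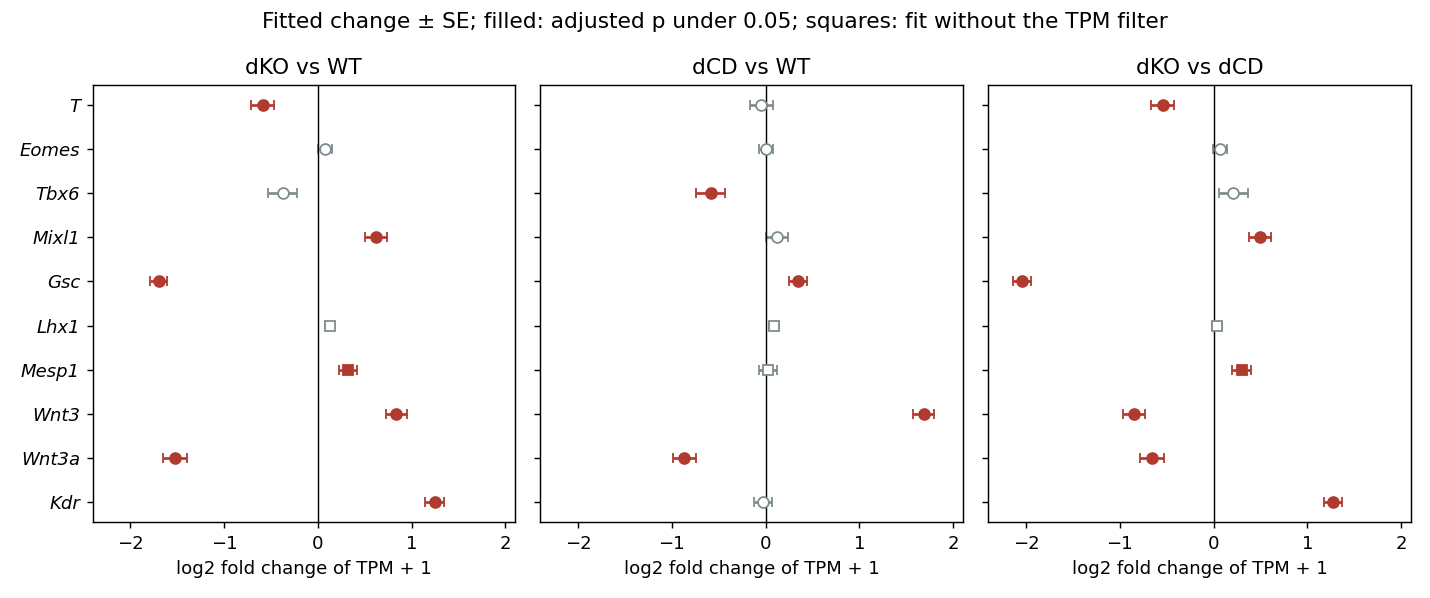
Log2 change of TPM + 1 with its SE for the 10 genes in dKO against WT, dCD against WT and dKO against dCD (filled: limma adjusted p under 0.05, squares: fit without the TPM filter). Gsc at -1.70 and Wnt3a at -1.52 were the largest falls in dKO, Kdr at 1.25 the largest rise there and Wnt3 at 1.69 that in dCD.

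The size of a change in the low genes depended on the scale, although the direction of each called change did not. Wnt3a in dKO measured -1.52 with a pseudocount of 1, -3.88 with 0.1 and -5.08 by voom on recovered reads without the TPM filter. Wnt3 in dCD measured 1.69, 3.73 and 4.36 on the same scales. Gsc, at higher levels, moved less, from -1.70 to -1.91 and -1.96 in dKO.

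**Figure D4:**
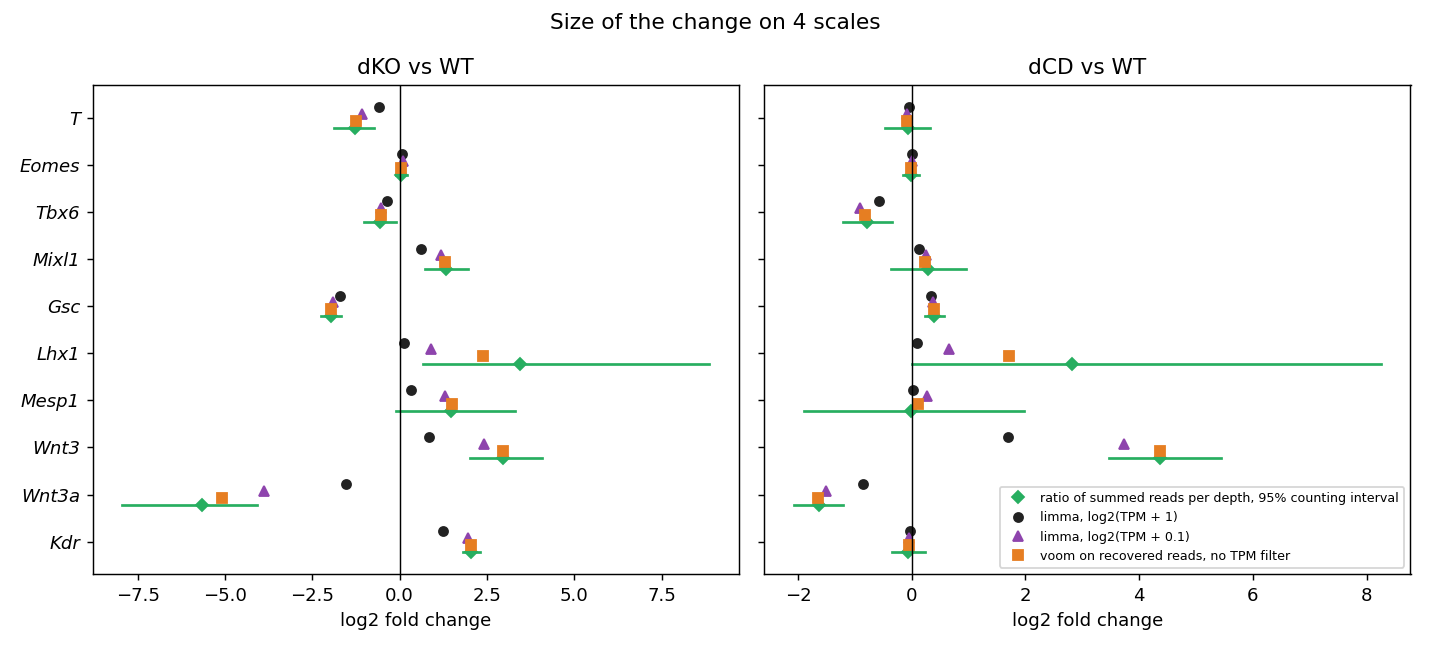
Log2 change of the 10 genes against WT on 4 scales: limma with a pseudocount of 1 or 0.1, voom on recovered reads without the TPM filter, and the ratio of summed reads per depth with its 95% counting interval (lines), with separate x axes for dKO and dCD. Wnt3, Wnt3a and Lhx1 spread widely over the scales, while Eomes and Gsc lay close together.

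Other genes of the streak and mesoderm were read from a list of 30, of which 23 were tested. In dKO 10 were higher and 4 lower than in WT (10 and 6 under median-ratio scaling), and in dCD 13 were higher and 2 lower, with median log2 changes of 0.25 and 0.30 against 0.10 and -0.01 over all tested genes. The share higher in dKO, 10 of 23, is near the 43.4% of all genes. Sp5, a transcription factor and direct Wnt target, rose from 5.19 ± 0.695 TPM to 24.3 ± 0.729 in dKO (log2 change 2.04, limma adjusted p = 2.39e-09) and 18.2 ± 0.407 in dCD (1.64, adjusted p = 3.13e-08). Evx1, a homeobox factor of the posterior streak, rose from 1.18 ± 0.0803 to 8.35 ± 0.622 in dKO and was 0.998 ± 0.121 in dCD. Fgf3 fell from 13.5 ± 0.911 to 3.37 ± 0.338 in dKO, and was 12.4 ± 0.976 in dCD. Snai1, the repressor of E-cadherin in cells that leave the epiblast, rose from 7.21 ± 0.896 to 24.0 ± 1.37 in dCD and was 7.27 ± 1.18 in dKO. Foxc1 rose from 0.907 ± 0.146 to 3.33 ± 0.151 in dKO and 4.63 ± 0.182 in dCD. Cdx1, a caudal homeobox factor, fell from 34.55 ± 1.87 to 8.46 ± 1.69 in dKO, lower than in dCD at 30.2 ± 1.86.

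Of 11 listed genes of the anterior streak and definitive endoderm 10 were tested, with 4 higher and 1 lower in dKO and 6 higher and 2 lower in dCD (medians 0.10 and 0.40). Foxa2, a forkhead factor of the node and endoderm, rose from 0.291 ± 0.143 TPM to 2.92 ± 0.25004 in dKO and 2.04 ± 0.236 in dCD. Lefty2, a Nodal inhibitor of mesoderm, rose from 46.3 ± 4.29 to 121.4 ± 6.01 in dKO and fell to 28.0 ± 1.497 in dCD. The BMP antagonist Nog rose from 1.31 ± 0.321 to 11.2 ± 0.273 in dCD, and the head organiser factor Otx2 from 21.9 ± 0.757 to 64.4 ± 0.691. Markers of other cell types changed too, in both directions. Fibroblast and feeder markers summed to 25.3 to 27.2 TPM in WT, 62.2 to 64.9 in dKO and 52.8 to 53.8 in dCD, and without Twist1 to 8.02 to 9.59, 18.8 to 21.0 and 30.1 to 31.9, where dCD was above dKO. The collagen Col1a1 was at 0.470 ± 0.0830, 10.2 ± 0.161 and 7.57 ± 0.0617, Col1a2 at 0.0189 ± 0.0105, 1.28 ± 0.0549 and 6.45 ± 0.305, and Col3a1 at 0.00873 ± 0.0151, 1.11 ± 0.102 and 1.23 ± 0.199. Thy1, of the same list, went the other way in dKO, from 2.18 ± 0.176 in WT to 0.412 ± 0.227, and was higher in dCD at 3.39 ± 0.687. Of 11 such markers 6 were tested, 4 higher and 1 lower in dKO and all 6 higher in dCD, and of the 5 not tested, Prrx1 and Dcn reached means of 0.529 and 0.488 TPM in dCD while Lum, Twist2 and Postn stayed below 0.2 TPM in every library. Primitive endoderm markers summed to 180.6 to 184.6, 93.6 to 95.4 and 335.3 to 349.6 TPM, with 2 of 7 tested higher and 2 lower in dKO and 4 higher and 1 lower in dCD. Without the basement membrane genes Col4a1 and Lama1, the other 6 summed to 9.12 to 10.6, 15.3 to 16.1 and 27.4 to 29.8, higher in dKO than in WT. Most of the dCD rise was Dab2, at 0.463 ± 0.0982 in WT, 1.76 ± 0.0473 in dKO and 14.2 ± 0.322 in dCD. Against WT, Gata4 was called in dKO only, Gata6 and Sox17 in dCD only, and Sox7 in neither. Neural markers summed to 209.4 to 225.5, 168.3 to 171.5 and 255.4 to 263.6 TPM, and without Tubb3 to 33.5 to 35.1, 80.8 to 84.9 and 58.4 to 61.7, with 2 of 4 higher and 2 lower in dKO and all 4 higher in dCD. Most of the dKO rise without Tubb3 was Sox1, from 14.3 ± 0.507 to 60.1 ± 2.26 TPM, beside Nes from 18.8 ± 1.28 to 22.8 ± 0.141. Tubb3 fell there from 185.3 ± 9.09 to 85.9 ± 1.96 and Pax6 from 1.21 ± 0.186 to 0.624 ± 0.0389. The part of such other cell types in the values of the streak genes was not tested.

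The 2 nearest named genes on each side of the 10 gave 30 tested neighbours. In dKO 13 were higher and 10 lower than in WT, and in dCD 8 were higher and 11 lower, shares near those of all genes. Of the 16 neighbours of genes called in dKO, 9 were called in the same direction as the gene and 5 in the opposite one. In dCD, 12 neighbours of called genes gave 5 and 4. Platr11, a noncoding RNA beside Eomes, fell from 32.2 ± 1.56 TPM in WT to 2.90 ± 0.808 in dKO (log2 change -3.11, limma adjusted p = 2.66e-08) and 23.0 ± 3.79 in dCD (-0.48, adjusted p = 0.0203), beside an Eomes level of 6.26 to 6.67. Clmn, the second gene after Gsc, fell in dKO from 9.90 ± 0.5004 to 2.44 ± 0.137 (-1.66, adjusted p = 4e-09) and in dCD to 5.07 ± 0.226, where Gsc rose. Kit, the stem cell factor receptor gene near Kdr, fell from 116.4 ± 2.599 to 63.4 ± 2.47 in dKO, where Kdr rose. Wnt9a, the Wnt gene beside Wnt3a, rose from 1.30 ± 0.147 to 4.16 ± 0.720 in dCD (1.16, adjusted p = 2.07e-05), where Wnt3a fell. None of the 4 neighbours of T entered the fit.

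**Figure D5:**
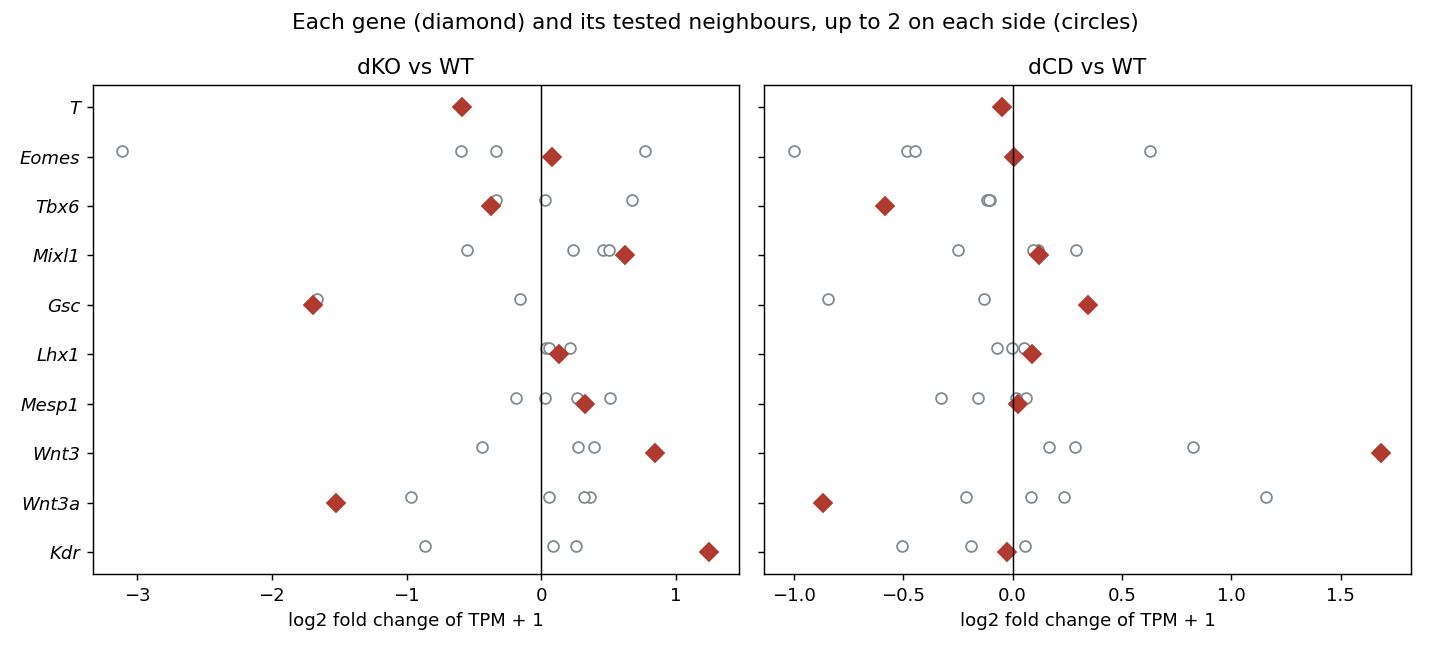
Log2 change of TPM + 1 against WT for each of the 10 genes (diamonds, Lhx1 and Mesp1 from the fit without the TPM filter) and its tested neighbours (circles), with separate x axes for dKO and dCD. Platr11 beside Eomes at -3.11 in dKO lay farthest from 0, and neighbours lay on both sides of 0 for most genes.

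On the log2(TPM + 1) scale Gsc had the widest range of line means among the 8 genes in the fit, while Wnt3a and Wnt3 led by ratio of mean TPM. The genes whose pattern over the 9 libraries was most like that of Gsc were Lrfn1, Pvr and Obsl1, each with Pearson's r of 0.996. Their mean TPM was 37.5, 23.1 and 42.3 for Lrfn1, 35.9, 15.2 and 44.8 for Pvr, and 48.5, 25.0 and 57.8 for Obsl1 in WT, dKO and dCD. In all, 734 genes correlated with Gsc above 0.95. The libraries fall into 3 lines, so such values describe the order of the lines more than the variation within them.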

How the data were processed

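The deposited expression file gives TPM for each gene in each of the 9 RNA-seq libraries, beside gene lengths. The authors' TPM scale divides reads by gene length and sets each library to the same sum, which was checked on the columns. HISAT2, featureCounts, DESeq2 and the build mm9 are named in the submitters' processing notes, without versions or roles. The sources used here do not give annotation or strand setting, so overlapping or antisense reads cannot be told apart. Multiplying TPM by length gave whole reads (100% of values within 0.01), and these recovered reads give depth, detection and counting intervals (95%, exact), which cover counting error only.

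Samples were grouped by title. Genes with at least 1 TPM in at least 3 of 9 libraries were fitted with limma 3.58.1 in R 4.3.3 (lmFit, eBayes with trend) on log2(TPM + 1), all 9 libraries in 1 fit without a replicate block, two-sided, adjusted by Benjamini and Hochberg over 16179 genes at a threshold of 0.05. Mesp1 and Lhx1 came from the same fit over the 23301 genes with at least 10 reads summed over libraries. The script was tested on simulated data. The 10 genes and the lists were chosen with earlier results of these data known. Beyond the 10, the text names genes among up to 4 called genes per list and comparison by p-value, with both directions where both occur, the 2 nearest named genes on each side, and the 3 genes most like the gene with the widest range. Axin2, Lef1, Znrf3, Dkk1 and Cd34 were picked after their values were seen. So were genes left out of a marker sum and genes named for a low level as defining markers. The same holds for the levels given for a named gene in a line where the rule did not pick it. A gene can be in several lists, as Tbx3 and Eomes are. Replicates differed beyond sampling noise (chi-square 1.53 to 3.81 for each degree of freedom). Remaining steps ran in Python 3.11.15 (numpy 2.4.6, pandas 2.3.3, scipy 1.17.1, matplotlib 3.10.9). In all, 18 alternatives were tried (scaling, filters, pseudocount, voom, block, subsets of libraries). Samples of other assays (ChIP-seq with inputs, ATAC-seq, Start-seq, GRO-seq) were left out, since the genes are described here by their mRNA.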

Additional observations from a re-analysis of the deposited data

How the results depend on the processing

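Over 504 alternative values of the log2 changes of the 10 genes, 472 kept their direction and their side of the threshold, 11 became calls, 8 lost a call and 13 changed sign, none of which was a called change. The signs that changed were those of values near 0, and the cause was not tested. For dCD against WT, leaving out 1 library at a time gave -0.1509 to 0.04032 for T, -0.04693 to 0.04211 for Eomes, -0.07037 to 0.02964 for Kdr and -0.06789 to 0.1227 for Mesp1. Quantile normalization gave -0.07307 for Mixl1 and -0.02235 for Mesp1, and voom gave -0.01394 for Eomes and -0.01345 without the TPM filter. For Eomes in dKO, median-ratio scaling gave -0.01214 against WT and -0.0223 against dCD. The calls that were lost are all of Mesp1, and the calls that were gained are of Lhx1 and Tbx6 in dKO against WT. Lhx1 was called there by voom without the TPM filter (2.40, limma adjusted p = 0.00579), a pseudocount of 0.1 and quantile normalization, and without dKO replicate 1 or dCD replicate 2, and the cause was not tested.

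Counts of called genes moved with the filter and the fold required. With a TPM of at least 5 in 3 libraries only Eomes and Gsc remained in the fit, and the higher and lower counts became 0 and 1 in dKO against WT (3 and 3 in the report), 1 and 0 in dCD against WT (2 and 2), and 0 and 1 in dKO against dCD (2 and 4). Requiring 2-fold left 1 higher and 2 lower in dKO against WT, 1 higher and 0 lower in dCD against WT, and 1 higher and 1 lower in dKO against dCD. Voom without the TPM filter, in which Mesp1 and Lhx1 also enter, gave 5 higher in dKO against WT. Detection in dCD fell from 8 to 4 genes at 1 TPM in every library. Leaving out 1 library at a time gave 3 to 4 lower in dKO against WT and no other change in these counts. Replicate numbers did not pair the libraries: deviations of same-numbered libraries correlated at -0.0494 to 0.0424, and others at -0.0655 to 0.0726. With a replicate block, Tbx6 was called lower in dKO (limma adjusted p = 0.0399), giving 4 lower, and no other call changed. Median-ratio scaling moved the median of all genes by -0.09 in dKO against WT and in dKO against dCD, and the share of calls that were higher from 60.4% to 49.9% and from 61.0% to 48.9%. Depth limits Mesp1, Lhx1, Wnt3 in WT and Wnt3a in dKO, which rest on 0 to 7 reads per library.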
